A study of Homo sapiens with 6 samples.

Results

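ZNF genes encode proteins built around zinc fingers of the C2H2 kind, short folds in which a pair of cysteines and a pair of histidines hold a zinc ion. The genes described here are the 200 with the highest counts, summed over 6 libraries, among the 558 genes of the deposited table whose names consist of ZNF, a number and at most 1 further letter. The table holds 60675 genes in all. The members were thus chosen by their summed counts, and their levels are a description and carry no test. The members held 84.3% of all counts given to ZNF-named genes, and 94 ZNF-named genes had no counts. The cut fell within a narrow range of counts: ZNF573, ZNF549 and ZNF221 were the last inside with 627, 626 and 623 summed counts, and ZNF710, ZNF14 and ZNF776 were the first outside with 622, 618 and 613.

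The RNA came from OCI-AML2, a cell line of human acute myeloid leukaemia, and was pulled down with J2, an antibody against double-stranded RNA, before directional sequencing. Short hairpin RNA was directed against SUPV3L1 (SUV3), a mitochondrial RNA helicase, in 3 libraries. In the other 3 it was directed against PNPT1, the mitochondrial exoribonuclease polynucleotide phosphorylase. Both groups are therefore transduced and precipitated, and the only comparison is SUPV3L1 knockdown over PNPT1 knockdown. Cells with no hairpin against these genes and RNA before precipitation were not analysed here, so a difference in a gene's transcript level and a difference in how much of it the antibody bound cannot be told apart. The design text calls the 3 samples of a group biological replicates, but each sample title carries a number of its own whose meaning is not stated. A group may thus hold 1 hairpin or several, and its spread could include differences between them. In bulk RNA, fewer cells of a type and less RNA per cell cannot be told apart either.

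Tandem C2H2 fingers read DNA sequence, and in some proteins RNA. Many ZNF proteins also carry a KRAB box, which recruits the co-repressor TRIM28 (KAP1), and TRIM28 in turn brings the histone methyltransferase SETDB1 and HP1 proteins that silence retroelements. Genes of the KRAB class arose largely by tandem duplication and lie in clusters, many of them on chromosome 19. ZNF genes without a KRAB box are a mixed group that includes regulators of transcription, splicing and the ribosome.

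Coding stretches of a few members show the KRAB box and the fingers that the class counts below rest on. They were read from GENCODE 29 transcripts on GRCh38, 5′ to 3′ on the coding strand. In the KRAB A boxes, capitals mark codons for the anchor residues at which the box was recognised. ZNF184 lies on the minus strand of chromosome 6 (27450743 to 27473118), ZNF480 on the plus strand of chromosome 19 (52297177 to 52325922) and ZNF160 on its minus strand (53066606 to 53103436).
ZNF184 KRAB A box, codons 30 to 60: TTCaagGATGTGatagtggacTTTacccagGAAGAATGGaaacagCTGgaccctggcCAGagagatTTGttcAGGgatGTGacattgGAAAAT
ZNF480 KRAB A box, codons 29 to 59: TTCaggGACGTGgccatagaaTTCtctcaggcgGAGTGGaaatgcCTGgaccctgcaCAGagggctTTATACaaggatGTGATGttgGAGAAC
ZNF160 KRAB A box, codons 10 to 40: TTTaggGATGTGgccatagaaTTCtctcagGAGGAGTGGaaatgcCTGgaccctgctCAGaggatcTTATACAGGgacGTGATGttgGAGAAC
ZNF480 and ZNF160 were identical at 84 of the 93 bases (90.3%), while ZNF184 matched ZNF480 at 65 (69.9%) and ZNF160 at 64 (68.8%). The boxes of ZNF184, ZNF480 and ZNF160 held 14, 14 and 16 of the 16 anchor residues.

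In the fingers with the linker that follows, capitals mark the cysteine and histidine codons. ZNF146 and ZNF121 are members without a KRAB box and with high levels, and ZNF184 is a KRAB member.
ZNF146 finger, codons 74 to 101: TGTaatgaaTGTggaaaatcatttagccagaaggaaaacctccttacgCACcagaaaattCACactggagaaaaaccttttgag
ZNF121 finger, codons 146 to 173: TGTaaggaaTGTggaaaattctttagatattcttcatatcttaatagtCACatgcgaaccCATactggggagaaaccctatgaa
ZNF184 finger, codons 224 to 251: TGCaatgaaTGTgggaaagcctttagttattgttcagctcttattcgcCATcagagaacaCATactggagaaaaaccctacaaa
The ZNF121 and ZNF184 fingers were identical at 63 of 84 bases (75%), and each matched the ZNF146 finger at 54 (64.3%). Such likeness bears on counting, because a read that aligns to several genes gives no count. Of the 200 members, 76 shared no run of 50 bases with a transcript of another gene, and 8 shared 25% or more of theirs. These 8 were ZNF320 (99.5%, mostly with ZNF468), ZNF286A, ZNF280D, ZNF395, ZNF587B, ZNF512, ZNF808 and ZNF585B, and their counts are uncertain.

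Assigned counts were between 5852090 and 11361371 per library, and PNPT1 knockdown replicate 3 stood apart. It had the fewest assigned counts, 80.1% of its alignment entries were not unique, 16620 genes had a count in it, and its TMM scaling factor was 0.669, the lowest of the 6. Mitochondrial genes took 11.3% of its counts and a group of clone-named genes took 37.7%, the lowest and highest shares of the 6 libraries. In this library 100 of the 200 members had fewer than 50 counts, and the lowest had 5. Fold changes and list medians are therefore also given without it. PNPT1 had 36.3, 27.6 and 21.4 CPM (counts scaled to TMM-adjusted library size) in SUPV3L1 knockdown, against 7.66, 18.9 and 17.1 CPM in PNPT1 knockdown, with no overlap. SUPV3L1 had 12.2, 12.3 and 9.42 CPM in SUPV3L1 knockdown, against 11.5, 18.2 and 25.8 CPM in PNPT1 knockdown, and here the groups overlapped. Neither passed the adjusted threshold that the members were held to. Of 11 myeloid markers 7 were above 1 CPM in every library, while CD34 had 0 counts in all 6 and KIT reached at most 0.50 CPM. Of these 11, 9 were among the 13275 genes tested. Among the 9, LYZ, CD33 and SPI1 were higher in every SUPV3L1 knockdown library than in any PNPT1 knockdown library, and none was lower without overlap. Over all genes tested these shares were 4.62% higher and 3.94% lower. LYZ, the lysozyme of myeloid cells, had 1493, 344 and 1331 CPM in SUPV3L1 knockdown, against 36.6, 180 and 144 CPM in PNPT1 knockdown (log2 fold change 3.14, SE 0.70, adjusted p = 0.898 by edgeR's quasi-likelihood test; 3.28 without PNPT1 knockdown replicate 3). The part of this difference in the results for ZNF genes was not tested. Of 12 markers of other cell types, 11 were under 1 CPM in every library, and PECAM1 lay between 20.7 and 104 CPM.

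The members together took 0.606%, 0.634% and 0.638% of assigned counts in SUPV3L1 knockdown, against 0.841%, 0.667% and 0.327% in PNPT1 knockdown. The lowest and the highest share were thus both in PNPT1 knockdown libraries, and the 3 SUPV3L1 knockdown libraries lay close together between them. SUPV3L1 knockdown averaged 0.626% ± 0.0175 and PNPT1 knockdown 0.612% ± 0.261 (SD, n = 3 each). Without PNPT1 knockdown replicate 3, the PNPT1 knockdown mean was 0.754%. The Wilson 95% interval of that library's share was 0.322% to 0.332%, and it covers counting error only.

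Summed counts of the members lay between 623 and 10537 with a median of 1157.5. Per length and depth, mean levels lay between 0.493 and 16 FPKM with a median of 2.65 FPKM, beside a median of 2.57 FPKM over the 13275 genes tested. The most abundant by FPKM were ZNF146, ZNF521, ZNF121, ZNF217, ZNF207, ZNF638, ZNF516, ZNF22, ZNF281 and ZNF460. Of these 10, only ZNF460 carries a KRAB A box by the pattern used.

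ZNF146, a protein made almost wholly of zinc fingers (chromosome 19, 36214602 to 36238774, plus strand), had 15.8, 18.3 and 21.2 FPKM in SUPV3L1 knockdown, against 17.9, 17 and 5.56 FPKM in PNPT1 knockdown. The low value is PNPT1 knockdown replicate 3, and the other 5 libraries overlapped. ZNF521, a transcriptional co-factor of early haematopoietic cells (chromosome 18, 25061926 to 25352190, minus strand), had 13.8, 17.9 and 7.56 FPKM in SUPV3L1 knockdown, against 20.1, 29.8 and 6.44 FPKM in PNPT1 knockdown. How low PNPT1 knockdown replicate 3 lay depended on the unit: ZNF521 was lowest there in FPKM, but in CPM it was lowest in SUPV3L1 knockdown replicate 3, as given below. ZNF521 had the widest spread of the 10, with an SD of 8.69 FPKM over the 6 libraries around a mean of 15.9 FPKM.
ZNF121 (chromosome 19, 9560353 to 9584533, minus strand) had 13.3, 16.1 and 15.4 FPKM in SUPV3L1 knockdown, against 15.3, 15.5 and 2.83 FPKM in PNPT1 knockdown. All but PNPT1 knockdown replicate 3 lay within a narrow range. ZNF217, an oncogene product that works with the CoREST repressor complex, had 16, 7.35 and 9.69 FPKM in SUPV3L1 knockdown, against 13.7, 9.70 and 9.72 FPKM in PNPT1 knockdown. Here the low library was a SUPV3L1 knockdown library, and the groups overlapped. ZNF207, a microtubule-binding partner of the spindle checkpoint protein BUB3, had 9.02, 9.82 and 10.7 FPKM in SUPV3L1 knockdown, against 14.6, 10.7 and 10.2 FPKM in PNPT1 knockdown, and its level in PNPT1 knockdown replicate 3 was not low. ZNF281, a transcription factor of stem cells, had its lowest FPKM in that library, 6.95, and also its highest CPM, 69.4.

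The order of mean levels among these 10 ran from 16 FPKM for ZNF146 to 8.13 FPKM for ZNF460, and neighbours in it differed by less than the SD of either over the 6 libraries. ZNF146 (16 ± 5.40), ZNF521 (15.9 ± 8.69) and ZNF121 (13.1 ± 5.10) overlapped, as did ZNF638 (10.0 ± 3.62), ZNF516 (9.61 ± 2.42), ZNF22 (9.39 ± 2.86) and ZNF281 (9.18 ± 1.76 FPKM, SD over 6 libraries). By summed counts, which rise with transcript length, the order began with ZNF638 and ZNF207, at 10537 and 10516 counts, followed by ZNF451, ZNF521, ZNF292, ZNF121, ZNF516, ZNF106, ZNF318 and ZNF445.

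**Figure D1:**
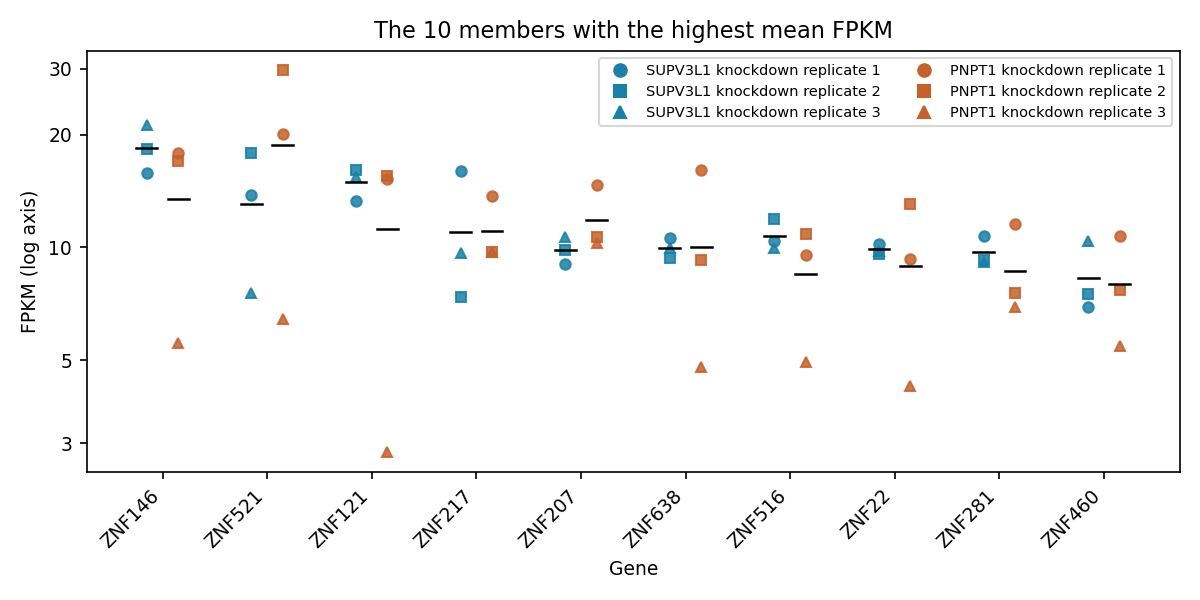
Deposited FPKM (log axis) of the 10 members with the highest mean FPKM, 1 point per library, with SUPV3L1 knockdown left of PNPT1 knockdown for each gene. PNPT1 knockdown replicate 3 is the lowest point of ZNF146, at 5.56 FPKM, and of ZNF121, at 2.83 FPKM, and is not the lowest of ZNF207.

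None of the 200 members differed between the groups at an adjusted p under 0.05 in edgeR's quasi-likelihood fit, with Benjamini-Hochberg adjustment across the 13275 genes tested. No gene of the whole table did (0% of genes tested, in either direction), and the smallest adjusted p among the members was 0.898. An unadjusted p under 0.05 was reached by 5 members (2.5%), all lower in SUPV3L1 knockdown. Over all genes tested that share was 4.09%, with 1.7% higher and 2.39% lower in SUPV3L1 knockdown. The groups did not overlap in CPM for 17 members (8.5%), 13 of them higher and 4 lower in SUPV3L1 knockdown, beside 8.56% of all genes tested, 4.62% higher and 3.94% lower. In either direction together the members' share without overlap was about that of all genes tested. Their share with an unadjusted p under 0.05 was below it. By direction, 6.5% of members were higher without overlap and 2% lower, and the 2.5% with an unadjusted p under 0.05 and lower lay beside the background of 2.39%. Without PNPT1 knockdown replicate 3, 2 members had an unadjusted p under 0.05, beside 328 of the 13275 genes tested. DESeq2, run as an alternative, gave 0 members at an adjusted p under 0.05 (0.136% of all genes tested) and 5 at an unadjusted p under 0.05 (5.55% of all genes tested).

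Log2 fold changes of the members, SUPV3L1 over PNPT1 knockdown, lay between -1.20 and 1.00. Only ZNF184, ZNF555 and ZNF367 differed by more than 1 on the log2 scale, and 147 members differed by less than 0.5, beside a median standard error of 0.40. The median was 0.15, with 126 members above 0, beside a median of 0.01 over all genes tested, with 6729 above 0. Without PNPT1 knockdown replicate 3 the median of the members was -0.05, with 89 above 0. That library alone thus turned the direction of the median.

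**Figure D2:**
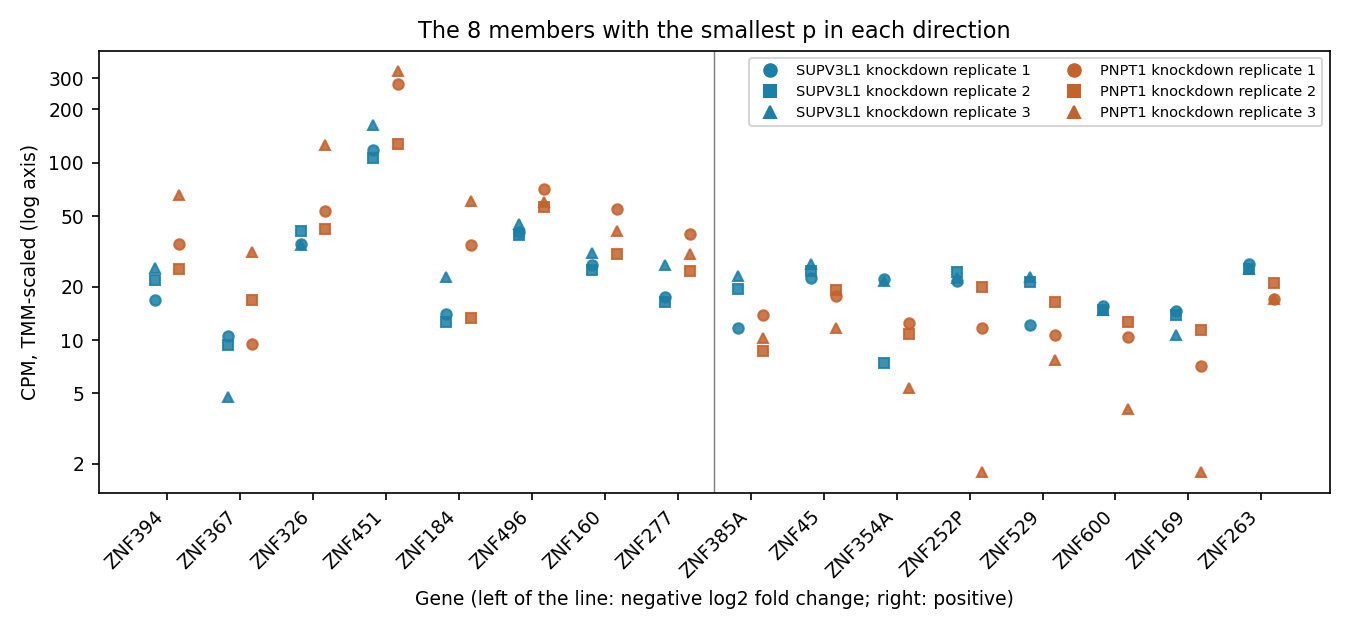
CPM (log axis) of the 8 members with the smallest p in each direction, 1 point per library, with SUPV3L1 knockdown left of PNPT1 knockdown for each gene; the vertical line parts the 2 directions. In ZNF326 PNPT1 knockdown replicate 3 reached 126 CPM, above the other 5 libraries, and in ZNF169 it was at 1.79 CPM, below them.

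The 5 members with an unadjusted p under 0.05 had their highest value in PNPT1 knockdown replicate 3. ZNF394 (chromosome 7, 99486519 to 99500324, minus strand) had 16.8, 21.9 and 25.6 CPM in SUPV3L1 knockdown, against 34.7, 25.3 and 66.0 CPM in PNPT1 knockdown. The groups overlapped slightly, since 25.6 lies above 25.3. The log2 fold change was -0.97 (SE 0.40, unadjusted p = 0.0347, adjusted p = 0.898 by edgeR's quasi-likelihood test), and -0.50 without PNPT1 knockdown replicate 3. ZNF367 (chromosome 9, 96385941 to 96418329, minus strand) had 10.6, 9.34 and 4.76 CPM in SUPV3L1 knockdown, against 9.55, 16.9 and 31.2 CPM in PNPT1 knockdown, again with overlap. It had the lowest log2 fold change of the members, -1.20 (SE 0.50), and -0.68 without that library.
ZNF326, a subunit of the DBIRD complex that links elongation by RNA polymerase II to splicing (chromosome 1, 89995112 to 90035531, plus strand), had 34.9, 41.4 and 34.5 CPM in SUPV3L1 knockdown, against 53.7, 42.2 and 126 CPM in PNPT1 knockdown. Its groups did not overlap, though 41.4 and 42.2 were nearly equal. The log2 fold change was -0.997 (SE 0.42), and -0.38 without PNPT1 knockdown replicate 3. ZNF451, a SUMO ligase (chromosome 6, 57086844 to 57170307, plus strand), had 119, 106 and 163 CPM in SUPV3L1 knockdown, against 278, 128 and 330 CPM in PNPT1 knockdown. PNPT1 knockdown replicates 1 and 3 were high and replicate 2 lay among the SUPV3L1 knockdown values, and the log2 fold change was -0.92 (SE 0.40), or -0.66 without replicate 3.
ZNF184, the KRAB member whose sequence is shown above, had 14.0, 12.6 and 22.7 CPM in SUPV3L1 knockdown, against 34.4, 13.3 and 60.7 CPM in PNPT1 knockdown. PNPT1 knockdown replicate 2 fell within the SUPV3L1 knockdown range, and the log2 fold change was -1.12 (SE 0.51), or -0.55 without replicate 3.

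The next members by p in this direction depended less on that library. ZNF496 (chromosome 1, 247297412 to 247331846, minus strand) had 40.9, 39.0 and 45.3 CPM in SUPV3L1 knockdown, against 71.4, 56.3 and 60.4 CPM in PNPT1 knockdown. The groups were clear of each other, and PNPT1 knockdown replicate 1 was the highest. The log2 fold change was -0.59 (SE 0.28, unadjusted p = 0.0628, adjusted p = 0.898 by edgeR's quasi-likelihood test), and -0.62 without PNPT1 knockdown replicate 3. ZNF160, the KRAB member of chromosome 19 shown above, had 26.5, 24.8 and 31.2 CPM in SUPV3L1 knockdown, against 54.8, 30.7 and 41.2 CPM in PNPT1 knockdown. ZNF277 had 17.4, 16.4 and 26.5 CPM in SUPV3L1 knockdown, against 39.7, 24.5 and 30.7 CPM in PNPT1 knockdown. Both overlapped by a small margin, with log2 fold changes of -0.62 and -0.65, and -0.65 and -0.68 without that library.

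Among members higher in SUPV3L1 knockdown the smallest p values were those of ZNF385A, ZNF45, ZNF354A, ZNF252P, ZNF529, ZNF600, ZNF169 and ZNF263, with unadjusted p between 0.0916 and 0.137. ZNF385A, a p53 co-factor (chromosome 12, 54369133 to 54391298, minus strand), had 11.8, 19.5 and 22.8 CPM in SUPV3L1 knockdown, against 13.9, 8.64 and 10.2 CPM in PNPT1 knockdown. SUPV3L1 knockdown replicate 1 lay below PNPT1 knockdown replicate 1, so the groups overlapped, and the log2 fold change was 0.72 (SE 0.39), or 0.67 without PNPT1 knockdown replicate 3. ZNF45, a KRAB member (chromosome 19, 43912629 to 43935278, minus strand), had 22.5, 24.4 and 27 CPM in SUPV3L1 knockdown, against 17.7, 19.1 and 11.8 CPM in PNPT1 knockdown. The groups did not overlap, and the log2 fold change was 0.60 (SE 0.32), or 0.41 without that library. ZNF263 (chromosome 16, 3263800 to 3301401, plus strand) had 26.8, 25.3 and 25.2 CPM in SUPV3L1 knockdown, against 17.1, 21.0 and 17.1 CPM in PNPT1 knockdown. Its values were tight within SUPV3L1 knockdown and clear of PNPT1 knockdown, with a log2 fold change of 0.48 (SE 0.30), or 0.43 without that library.
The log2 fold changes of the others were also smaller without PNPT1 knockdown replicate 3. ZNF252P, a transcribed pseudogene, had 21.5, 24.3 and 22.5 CPM in SUPV3L1 knockdown, against 11.6, 19.9 and 1.79 CPM in PNPT1 knockdown. The last value stands on 7 counts, and the log2 fold change of 1.00 (SE 0.60) was 0.52 without it. ZNF169, a KRAB member, had 14.6, 13.9 and 10.7 CPM in SUPV3L1 knockdown, against 7.17, 11.44 and 1.79 CPM in PNPT1 knockdown, also with 7 counts in that library. Its log2 fold change of 0.90 (SE 0.55) was 0.48 without it. ZNF354A, ZNF529 and ZNF600, KRAB members too, had log2 fold changes of 0.82, 0.68 and 0.71, and of 0.54, 0.46 and 0.38 without it.

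Many members were at their lowest in PNPT1 knockdown replicate 3. Of the 200 members 127 (63.5%) had their lowest CPM there, beside 36.4% of all genes tested, and 10% had their highest there, beside 30.6%. Among the 207 other ZNF-named genes tested, which the choice of members left out, 63.8% had their lowest CPM in the same library. The number depended on the scaling, for which alternatives were added after seeing the data: without the TMM factor 174 of 200 members were lowest there, beside 59.1% of all genes tested, and in FPKM 180 were, beside 62.2%. The depth, mitochondrial share and clone-named share of that library, given above, moved with this, and their part in it was not tested. Across the members, the log2 CPM of this library correlated with the other libraries at Pearson's r between 0.62 and 0.79 (n = 200 genes, which are not independent replicates). The highest correlation crossed the groups, at 0.95 between SUPV3L1 knockdown replicate 2 and PNPT1 knockdown replicate 2. The same pair was highest over all genes tested, at 0.97. The lowest correlations over all genes tested were those of PNPT1 knockdown replicate 3, between 0.85 and 0.90. Across the members, SUPV3L1 knockdown replicate 2 and PNPT1 knockdown replicate 1 were at 0.76, within the range given for that library.

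Most of these 127 were KRAB members. An A box was recognised in 118 of the 196 protein-coding members, by at least 10 of 16 anchor residues, and the same search found one in 372 of 19947 coding genes of the annotation (1.86%). Only 1 member lay within 1 anchor of the limit. The other 78 coding members had no match, and ZNF788, ZNF252P, ZNF767P and ZNF271P are not annotated as protein coding. Median levels of KRAB members were 15.7, 17.4 and 20.03 CPM in SUPV3L1 knockdown, against 20.5, 18 and 8.19 CPM in PNPT1 knockdown. PNPT1 knockdown replicate 3 was far below the rest, and PNPT1 knockdown replicate 1 was the highest. Members without the box had medians of 29.7, 31.5 and 31.9 CPM in SUPV3L1 knockdown, against 28.4, 31 and 21.9 CPM in PNPT1 knockdown, with a smaller dip in the same library.

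In numbers of genes, 87 of 118 KRAB members (73.7%) and 36 of 78 members without the box (46.2%) were lowest in PNPT1 knockdown replicate 3. Without the TMM factor these numbers were 109 and 61, and in FPKM 112 and 64. The median KRAB member lay 1.05 below its own mean over the libraries there on the log2 scale (a deviation of -1.05), and the median member without the box had a deviation of -0.23. Median log2 fold changes were 0.18 for KRAB members and 0.08 for the others. Without that library they were -0.11 and 0.03, so the sign turned for KRAB members. KRAB members had lower counts on the whole. Among members with 1000 or more summed counts, 40 of 62 with the box and 26 of 62 without it were lowest in PNPT1 knockdown replicate 3. Per length, KRAB members had a median of 2.29 FPKM and the others 3.52 FPKM.

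**Figure D3:**
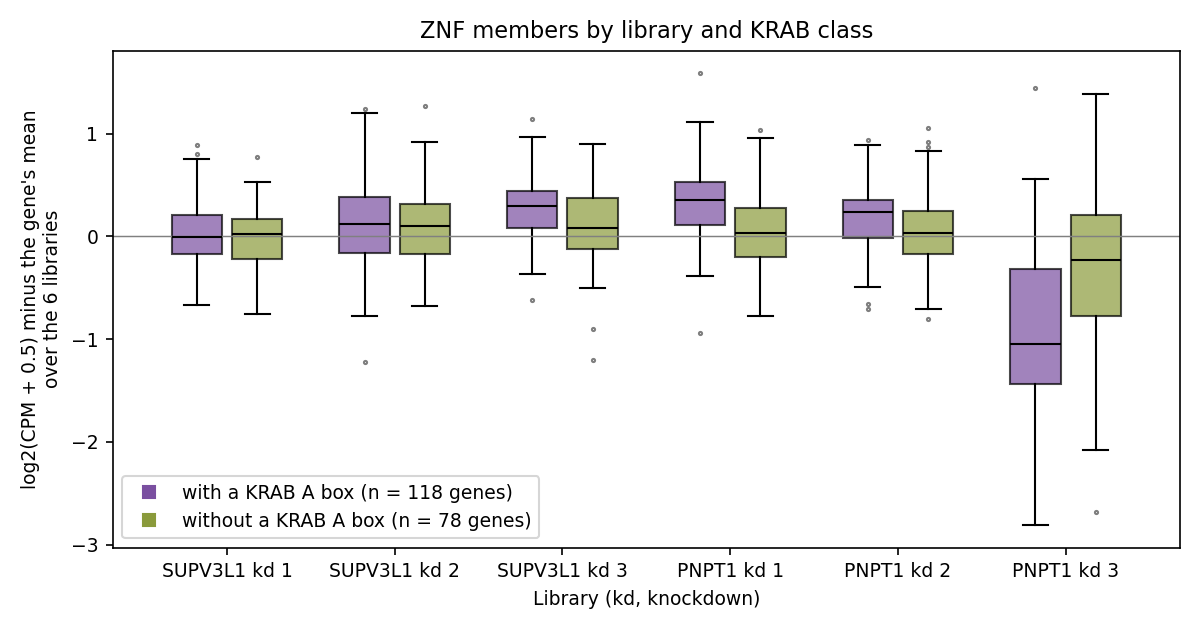
Deviation of each coding member from its own mean over the 6 libraries, in log2(CPM + 0.5), by library and by presence of a KRAB A box, with SUPV3L1 knockdown libraries left of PNPT1 knockdown libraries. The median KRAB member is at -1.05 and the median member without the box at -0.23 in PNPT1 knockdown replicate 3, the lowest library of both classes.

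The number of fingers, recognised by spacing of cysteines and histidines, had a median of 10 per protein and reached 31, and 2 coding members had no match. Of members with 1 to 5 fingers, 10 of 34 were lowest in PNPT1 knockdown replicate 3. The counts were 46 of 66 with 6 to 10 fingers, 43 of 59 with 11 to 15, and 23 of 35 with 16 or more. Proteins with few fingers are mostly without a KRAB box, so the 2 features overlap. Median log2 fold changes of these 4 ranges were -0.10, 0.19, 0.16 and 0.24, and without that library -0.16, 0.03, -0.16 and -0.01.

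Stretches that could pair were also counted in the transcripts of the members. Alu elements derive from 7SL RNA, and copies in opposite orientation within a transcript can fold into a duplex of the kind J2 binds. Matches of 50 bases or more to RN7SL1 in both orientations were found in 21 of 200 members (10.5%), beside 4% of all genes tested, and a match in either orientation in 32.5%, beside 20.1%. Of the 21, 20 had both orientations after the coding part. The stretch after the coding part had a median length of 1488.5 bases in members and 940 bases over all genes tested. The matches were 51 to 95 bases long and 72.6% to 91.7% identical. ZNF26, ZNF431, ZNF268, ZNF445 and ZNF891 held the most, 14, 13, 11, 9 and 9.
Members with such a pair had median levels of 23.9, 28.2 and 30.9 CPM in SUPV3L1 knockdown, against 28.8, 30.3 and 10.5 CPM in PNPT1 knockdown. PNPT1 knockdown replicate 3 was the lowest library for 18 of these 21 members and for 109 of the other 179. Their median log2 fold change was 0.38, beside 0.11 for the members without a pair, and 0.04 and -0.05 without that library. KRAB members made up 16 of the 21, so the 2 features overlap. Of these 16, 13 were lowest in PNPT1 knockdown replicate 3, beside 87 of all 118 KRAB members. The median log2 fold change of the 16 was 0.28, or 0.01 without that library. None of the 21 had an unadjusted p under 0.05. A match shows that these letters are present and not that a duplex formed or was bound.

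On chromosome 19 lie 85 members, 75 of them with a KRAB box, which is 42.5% of the members beside 7.11% of all genes tested. There, 63 of 85 were lowest in PNPT1 knockdown replicate 3, as were 64 of 115 on other chromosomes. Split by the box, 55 of 75 KRAB members on chromosome 19 and 32 of 43 elsewhere were lowest in that library. Of coding members without the box, 7 of 9 on chromosome 19 and 29 of 69 elsewhere were lowest in it. Joining members less than 500 kb apart gave 7 runs of 7 or more members, which together hold 73.
The longest run reached from ZNF577 to ZNF761 (chr19:51804816-53458261, GRCh38) and held 17 members, 16 of them with a KRAB box. Its median log2 fold change was 0.41, with 13 of 17 above 0, and 0.01 without PNPT1 knockdown replicate 3, where 15 of the 17 were lowest. The run from ZNF146 to ZNF573 (chr19:36214602-37817300) held 10 members with a median of 0.29, and that from ZNF283 to ZNF235 (chr19:43827292-44305046) held 8 with a median of 0.23. Without the library these medians were -0.000827 and -0.03. The run from ZNF264 to ZNF8 (chr19:57191500-58302805) held 14 members with a median of 0.13, or -0.04 without it.
The run from ZNF627 to ZNF791 (chr19:11559374-12633840) went the other way, with a median of -0.13 over 9 members and 3 above 0. Without PNPT1 knockdown replicate 3 its median was -0.35 and none of the 9 was above 0. The run from ZNF85 to ZNF100 (chr19:20923222-21767628) had medians of -0.04 and -0.38 over 7 members, and the run from ZNF558 to ZNF562 (chr19:8806170-9675086) had 0.13 and -0.10 over 8. ZNF480 and ZNF160 had the highest and the lowest log2 fold change of the 17 members in the run from ZNF577 to ZNF761. Their KRAB boxes were nearly the same, and neither had an unadjusted p under 0.05 by edgeR's quasi-likelihood test. ZNF480, named after its values were seen, had 30.4, 53.9 and 24.9 CPM in SUPV3L1 knockdown, against 17.6, 35.9 and 4.86 CPM in PNPT1 knockdown. The groups overlapped, and its log2 fold change was 0.88 (SE 0.58), or 0.44 without that library, beside -0.62 (SE 0.32) for ZNF160.

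**Figure D4:**
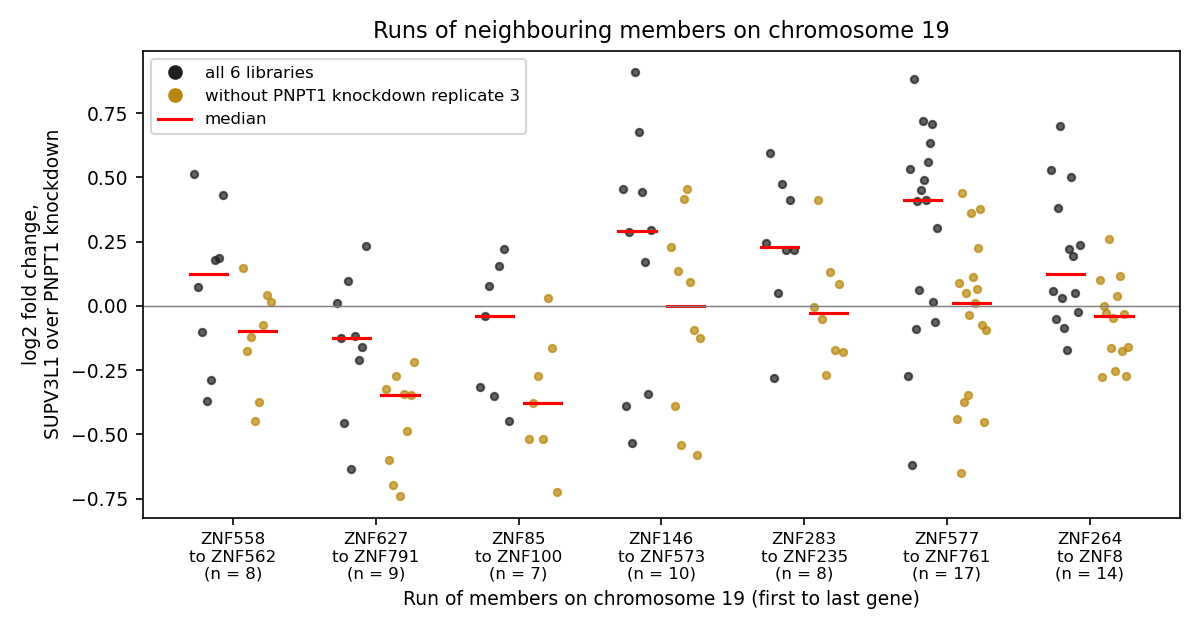
Log2 fold change of members, SUPV3L1 over PNPT1 knockdown, in the 7 runs of 7 or more members on chromosome 19, with all 6 libraries (dark) and without PNPT1 knockdown replicate 3 (gold); red lines are medians. The median of the run from ZNF577 to ZNF761 is 0.41 with all libraries and 0.01 without that library, and the run from ZNF627 to ZNF791 lies at -0.13 and -0.35.

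Of 8 genes listed for a role with RNA or the ribosome, 7 were among the 200, with 2 above and 5 below 0 and a median log2 fold change of -0.13, or -0.12 without PNPT1 knockdown replicate 3. None passed the adjusted threshold. ZNF346 (JAZ), whose fingers bind double-stranded RNA, had 11.3, 15.9 and 12.1 CPM in SUPV3L1 knockdown, against 13.6, 16.6 and 14.1 CPM in PNPT1 knockdown. The groups overlapped, and the log2 fold change was -0.17 (SE 0.34), or -0.21 without that library. ZNF598, a ubiquitin ligase that senses collided ribosomes, had 17.9, 29.9 and 16.4 CPM in SUPV3L1 knockdown, against 10.9, 35.4 and 14.1 CPM in PNPT1 knockdown. A library of each group stood well above its others, and the groups overlapped. The log2 fold change was 0.08 (SE 0.47), or -0.12 without that library. ZNF622, a maturation factor of the large ribosomal subunit, had 14.8, 12.5 and 13.9 CPM in SUPV3L1 knockdown, against 12, 13 and 20.5 CPM in PNPT1 knockdown. The groups overlapped, and the log2 fold change of -0.13 (SE 0.35) was 0.13 without PNPT1 knockdown replicate 3.
ZNF638, a nuclear matrix protein with roles in splicing and in silencing of retroviral DNA, had the highest summed counts of the members. It had 186, 155 and 186 CPM in SUPV3L1 knockdown, against 266, 148 and 139 CPM in PNPT1 knockdown. PNPT1 knockdown libraries held the highest and the lowest value, and the log2 fold change was -0.07 (SE 0.35), or -0.25 without PNPT1 knockdown replicate 3. ZNF106, an RNA-binding protein, had 124, 94.6 and 128 CPM in SUPV3L1 knockdown, against 97.5, 107 and 53.5 CPM in PNPT1 knockdown. ZNF706, a small protein with 1 finger, had 65.5, 44.0 and 72.7 CPM in SUPV3L1 knockdown, against 72.6, 55.9 and 140 CPM in PNPT1 knockdown. Both overlapped between groups, and in PNPT1 knockdown replicate 3 ZNF106 was at its lowest and ZNF706 at its highest. Their log2 fold changes were 0.42 (SE 0.34) and -0.56 (SE 0.39), and 0.17 and -0.09 without that library.

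Transcription and chromatin factors made up 20 members of 21 listed genes, with 8 above and 12 below 0 and a median log2 fold change of -0.10, or -0.15 without PNPT1 knockdown replicate 3. Only 4 of the 20 were lowest in that library. Their median level was 5.47 FPKM. None passed the adjusted threshold, and ZNF451 alone had an unadjusted p under 0.05. ZNF521 had 111, 143 and 64.9 CPM in SUPV3L1 knockdown, against 144, 230 and 93.9 CPM in PNPT1 knockdown. The groups overlapped, with a wide spread in each, and the log2 fold change was -0.55 (SE 0.42), or -0.82 without that library. ZNF143, an activator that binds many promoters and small nuclear RNA genes, had 21.0, 12.8 and 13.4 CPM in SUPV3L1 knockdown, against 25.7, 11.35 and 42.2 CPM in PNPT1 knockdown. The groups overlapped, and the log2 fold change of -0.73 (SE 0.47) was -0.24 without PNPT1 knockdown replicate 3.
ZNF207 had 149, 157 and 191 CPM in SUPV3L1 knockdown, against 217, 168 and 301 CPM in PNPT1 knockdown. ZNF24 had 64.7, 56.5 and 92.4 CPM in SUPV3L1 knockdown, against 114, 63.9 and 113 CPM in PNPT1 knockdown. Both overlapped at PNPT1 knockdown replicate 2, with log2 fold changes of -0.47 (SE 0.33) and -0.45 (SE 0.34), and -0.23 and -0.33 without PNPT1 knockdown replicate 3. ZNF217, with 129, 58.2 and 81.0 CPM in SUPV3L1 knockdown, against 95.4, 72.5 and 129 CPM in PNPT1 knockdown, had overlapping groups and a log2 fold change of -0.14 (SE 0.37), which turned to 0.08 without that library. ZNF292 had 126, 128 and 169 CPM in SUPV3L1 knockdown, against 171, 114 and 93.4 CPM in PNPT1 knockdown, and its log2 fold change of 0.16 (SE 0.33) turned to -0.03 without it. The 2 groups were close for ZNF532, with 57.1, 55.4 and 52.4 CPM in SUPV3L1 knockdown, against 58.1, 47.2 and 53.2 CPM in PNPT1 knockdown, and its log2 fold change of 0.06, or 0.05 without it, had the smallest standard error of the members, 0.28.

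KRAB factors with described roles in retroelement silencing or development made up 8 members of 16 listed genes. Their median log2 fold change was 0.31, with 7 above 0, and -0.05 without PNPT1 knockdown replicate 3, where 6 of the 8 were lowest. None had an unadjusted p under 0.05. ZNF263, on this list by its described role, did not reach the number of anchor residues used here. ZNF445, a regulator of genomic imprinting, had 70.6, 82.1 and 95 CPM in SUPV3L1 knockdown, against 123, 106 and 71.9 CPM in PNPT1 knockdown. It was the list's only member below 0, at -0.28 (SE 0.31), or -0.48 without that library. ZNF587, a repressor of endogenous retroviruses of the HERV-K group, had 50.5, 65.8 and 52.4 CPM in SUPV3L1 knockdown, against 41.3, 63.0 and 11.8 CPM in PNPT1 knockdown. The groups overlapped, and the log2 fold change of 0.53 (SE 0.49) was 0.10 without it.
ZNF808, a repressor of retroelements needed for human pancreas development, had 51.6, 38.7 and 36.6 CPM in SUPV3L1 knockdown, against 46.4, 32.7 and 7.93 CPM in PNPT1 knockdown. Its log2 fold change of 0.53 (SE 0.51) was 0.09 without that library. ZNF274, which binds the ends of other ZNF genes with SETDB1, had 12.1, 15.4 and 15.6 CPM in SUPV3L1 knockdown, against 16.3, 15.9 and 4.86 CPM in PNPT1 knockdown. PNPT1 knockdown replicates 1 and 2 were above every SUPV3L1 knockdown library and replicate 3 was below them, and the log2 fold change of 0.19 (SE 0.46) was -0.18 without replicate 3. ZNF224, ZNF268 and ZNF765 had 8.19, 4.35 and 5.63 CPM in that library, their lowest, and log2 fold changes of 0.05, 0.42 and 0.06, which were -0.27, 0.07 and -0.35 without it.

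**Figure D5:**
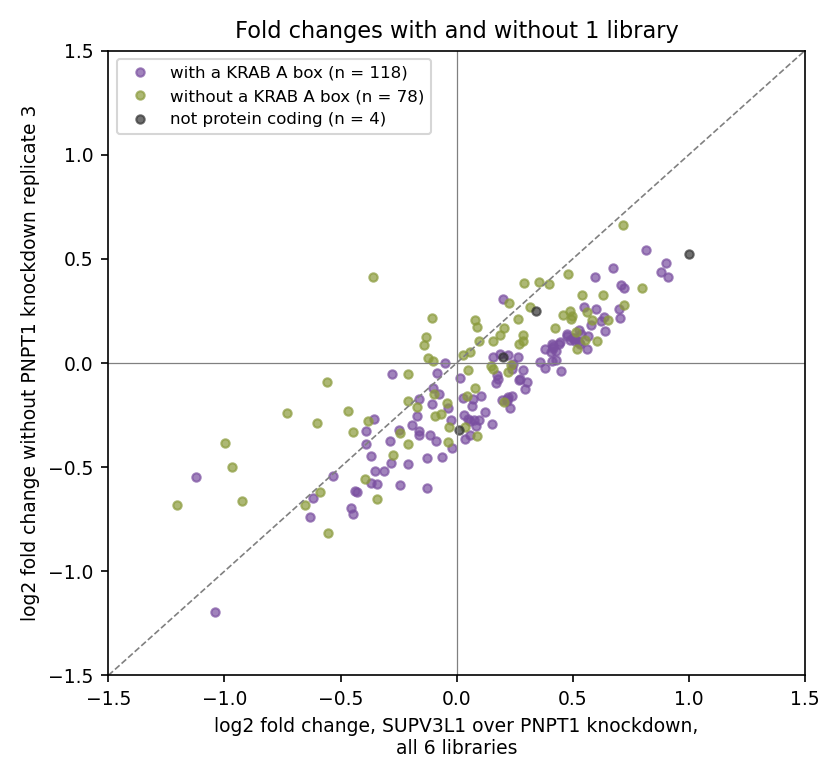
Log2 fold change of each member, SUPV3L1 over PNPT1 knockdown, with all 6 libraries (horizontal axis) and without PNPT1 knockdown replicate 3 (vertical axis). Colours mark presence of a KRAB A box, and the 4 members that are not protein coding have a colour of their own. The dashed line marks equal values. The median of KRAB members is 0.18 on the horizontal axis and -0.11 on the vertical axis, and that of members without the box is 0.08 and 0.03.

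Partners of the KRAB class were read from a list of 23 symbols, of which 22 were found and 21 tested. None passed the adjusted threshold or an unadjusted p of 0.05, 10 lay above and 11 below 0, and the median log2 fold change was -0.01, or -0.03 without PNPT1 knockdown replicate 3. TRIM28, the scaffold that KRAB boxes bind (chromosome 19, 58544091 to 58550722, plus strand), had 148, 162 and 88.1 CPM in SUPV3L1 knockdown, against 76.8, 115 and 147 CPM in PNPT1 knockdown. SETDB1, which methylates histone H3 lysine 9, had 63.6, 67.0 and 81.8 CPM in SUPV3L1 knockdown, against 94.2, 64.4 and 49.6 CPM in PNPT1 knockdown. Both overlapped, with log2 fold changes of 0.24 (SE 0.36) and 0.03 (SE 0.32). Without PNPT1 knockdown replicate 3 they were 0.47 and -0.17, so the sign turned for SETDB1. TRIM28 was highest among PNPT1 knockdown libraries in replicate 3.
SMARCAD1, a chromatin remodeller that binds TRIM28, had 38.5, 49.98 and 41.0 CPM in SUPV3L1 knockdown, against 25.2, 37.5 and 14.3 CPM in PNPT1 knockdown. MORC2, an ATPase that works with the HUSH silencing complex, had 19.7, 18.1 and 23.5 CPM in SUPV3L1 knockdown, against 14.2, 17.2 and 9.21 CPM in PNPT1 knockdown. These were the only 2 of the 21 tested genes of the list whose groups did not overlap. Over all genes tested, 8.56% did not overlap in either direction and 4.62% were higher in SUPV3L1 knockdown without overlap. The log2 fold changes of SMARCAD1 and MORC2 were 0.74 (SE 0.38) and 0.58 (SE 0.35), and 0.45 and 0.37 without PNPT1 knockdown replicate 3. CHD4, the remodeller of the NuRD complex, had 218, 233 and 224 CPM in SUPV3L1 knockdown, against 333, 221 and 475 CPM in PNPT1 knockdown. Its log2 fold change of -0.61 (SE 0.36) was -0.31 without that library, and the groups overlapped at PNPT1 knockdown replicate 2.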

How the data were processed

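Read counts per gene are the deposited count tables, whole numbers from HTSeq-type output whose 5 summary lines were left out, and FPKM are from the authors' deposited table, which also gave gene names. Per the submitters' processing notes, HISAT2 2.2.1, SAMtools 1.14, StringTie 2.1.4, HTSeq and GRCh38 were used. These notes and the labels name no strand setting or annotation release, so antisense or overlapping reads may be included. From the counts, TMM-scaled CPM, log2 fold changes (SUPV3L1 over PNPT1 knockdown) and p-values were computed with edgeR 4.0.16 (quasi-likelihood test, default expression filter) in R 4.3.3, Benjamini-Hochberg adjusted over 13275 genes with a threshold of 0.05. DESeq2 1.42.0, limma 3.58.1 on log2 FPKM with a pseudocount of 0.1 or 1, other scalings and filters, and fits without each library were alternatives. The edgeR fit was run on simulated counts with a dispersion of 0.1 and 200 genes changed. It recovered 172 of them at a 4-fold change and 200 at 16-fold, with 8 and 12 false calls. Changes as small as those of the members, and a library standing apart, were not simulated. Positions and transcripts come from GENCODE 29, and 7SL matches from BLAST+ 2.17.0 (e-value 1e-05). The translated coding part of 1 transcript per gene was searched for boxes and fingers, since a protein table was not used here. Genes named are the 10 members highest in FPKM and in counts, the 8 with the smallest p in each direction, role lists from general knowledge, the genes at the cut, and partners of the KRAB class. ZNF480, ZNF555 and genes named for a sequence feature or a position are outside this rule and were named after their values were seen. The members and lists were chosen with earlier results of these data known. Replicate numbers follow accession order and pair nothing.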

Additional observations from a re-analysis of the deposited data

How the results depend on the processing

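The count of members past the adjusted threshold was 0 under every alternative that gave it, while the whole table had 18 such genes with DESeq2 and 187 without an expression filter. The number of members with an unadjusted p under 0.05 was 5 as reported, beside 543 of all 13275 genes. It was 10 without a filter (1552 of 28015 genes) and 0 with library size only (316 of 13275 genes). On log2 FPKM it was 1, beside 341 of 13275 genes with a pseudocount of 0.1 and 379 with 1. Without PNPT1 knockdown replicate 2 it was 25, when 2041 of all 13275 genes reached it. Over all libraries left out in turn it lay between 1 and 25, beside 215 to 2041 of all genes. The members' median log2 fold change lay between -0.05 and 0.29 with 1 library left out, and was 0.34 on log2(FPKM + 0.1), where all genes had a median of 0.17. The share of counts was 1.23% in SUPV3L1 knockdown and 1.10% in PNPT1 knockdown without mitochondrial and clone-named genes, and the share of summed FPKM was 0.0450% in SUPV3L1 knockdown and 0.0330% in PNPT1 knockdown. Leaving out 1 library gave shares of 0.620% to 0.636% in SUPV3L1 knockdown and 0.497% to 0.754% in PNPT1 knockdown. The cause of these shifts was not tested. Of 770 fold changes of the 55 named members under alternatives, 753 moved by less than 1 standard error and 51 differed in sign, 14 of them without PNPT1 knockdown replicate 3. No paired analysis was possible because the labels give no replicate numbers shared by the groups. Members had their fewest counts as a group in PNPT1 knockdown replicate 3, 19136 against 59842 to 70256 in the other libraries, with both fewer assigned counts and a lower share of them, and arms left with 2 libraries rest on a spread shared by all.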
